A study of Mus musculus with 6 samples.

Results

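Aminoacyl-tRNA synthetases are the enzymes that join each amino acid to its transfer RNA, and the charged tRNAs are what the ribosome reads. The genes examined here are those whose symbol is a letter followed by "ars", with or without a final 1 or 2, together with Eprs, Farsa, Farsb and Farsl. By this rule 34 of the 19938 measured genes were synthetases, 18 of them cytosolic and 16, with a symbol ending in 2, mitochondrial. The genes were taken by name, under a rule set with earlier results of these data known. The alanyl synthetase gene Aars shares its probes with Exosc6 and was left out.

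RNA was measured on 6 arrays of mouse soleus (a slow-twitch muscle of the lower leg used in standing), in 3 groups of 2. All were male C57BL/6 mice of 8 weeks. The control group was not suspended as far as its label says. The suspension group had its hind limbs lifted so that the muscle carried no weight (hindlimb suspension, which makes the soleus waste), and the last group had the same suspension with electroacupuncture, a current passed through acupuncture needles. The length of suspension and the points and dose of the current are not given in the sources used here. Duplicates are described only as hybridizations, and whether each came from its own mouse is not stated, so p-values measure only the spread between these arrays, which may be technical. Signals are on a log2 scale, on which a difference of 1 is a 2-fold change. Precision is limited by having 2 arrays in a group. All 11 slow and general muscle markers were high on every array, from 9.51 (Myl2, electroacupuncture array 1) to 13.53 (Acta1, control array 2). Even so 9 of the 11 lay below 0 in suspension minus control, with a mean of -0.35 and none past the test, and in the treated group against control 1, the slow light chain gene Myl3, fell by 1.00 (SE 0.17, limma adjusted p = 0.0377). The call for Myl3 held without control array 1 and was lost without any of the other 5 arrays (limma adjusted p from 0.0631 to 0.332).

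Most mammalian tRNAs have a synthetase gene for the cytosol and another for the mitochondrion, which makes the few proteins its own genome encodes. Gars and Kars each supply both compartments, and mitochondrial glutaminyl-tRNA is made without a synthetase of its own, by an amidotransferase that contains Qrsl1, Gatb and Gatc. Several cytosolic synthetases sit together in the multisynthetase complex with the scaffold proteins Aimp1, Aimp2 and Eef1e1. Many cytosolic synthetase genes are known targets of ATF4, the transcription factor of the amino acid response, which is switched on through the kinase GCN2 (Eif2ak4) and its activator Gcn1 when uncharged tRNA accumulates.

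The letters that ATF4 sites often carry are shown first, because they differ between the synthetase genes and because they occur in other ATF4 targets whose values are given further on, of which Chac1, Asns (asparagine synthetase) and Trib3 (a pseudokinase) are shown. The motifs were chosen after the values were seen. RefSeq promoters (GRCm38.p6, 250 bases before to 50 after the start site) were at hand for 25 of the 34 genes. TGATGNAA, or its reverse complement TTNCATCA, occurred in 4 of the 25 (16%), against 4.51% of 27025 genes with a promoter and 9 of 23 amino acid response genes (39.1%). The 4 were the glycyl, isoleucyl, threonyl and tyrosyl synthetase genes. Their 30-base windows are printed on the strand of the gene, with the matching letters in capitals. They lie at chr6:55037960-55037989 (Gars, plus strand), chr13:49682126-49682155 (Iars, plus), chr15:11399655-11399684 (Tars, minus) and chr4:129189895-129189924 (Yars, plus), beside the windows of Chac1 at chr2:119351038-119351067 (plus), Asns at chr6:7693214-7693243 (minus) and Trib3 at chr2:152344028-152344057 (minus).
Gars: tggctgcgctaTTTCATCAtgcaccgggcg
Iars: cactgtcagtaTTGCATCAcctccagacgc
Tars: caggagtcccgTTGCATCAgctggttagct
Yars: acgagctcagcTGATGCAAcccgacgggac
Chac1: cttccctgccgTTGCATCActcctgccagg
Asns: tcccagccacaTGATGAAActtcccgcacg
Trib3: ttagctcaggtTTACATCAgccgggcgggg

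Iars, Tars and Chac1 carry the same 8 letters, and Yars carries their reverse complement. Gars and Trib3 differ from them at the free base, and Asns carries the reverse complement of the letters of Gars. Counted from 1 at the start site, with bases before it negative, the match began at -30 in Gars, 8 in Iars, -15 in Tars, 4 in Yars, -193 in Chac1, -23 in Asns and 15 in Trib3. Of the other motifs searched on both strands, TGACGTCA occurred in 0 of the 25 promoters (2.03% of all), CACGTG in 4 (16%, against 8.09%) and CCAAT in 12 (48%, against 41.1%). Iars and Tars held TGATGNAA, CACGTG and CCAAT. A match is a description of letters and not of binding.

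In suspended against control soleus, no synthetase gene passed the test (adjusted p under 0.05, limma over all genes), where 209 genes, 1.05% of those tested, did. The differences of the 34 genes ran from -0.43 (Hars2) to 0.40 (Pars2), with 16 above 0 and 18 below. Their median was -0.01, and that of all genes 0.01. The median size of a difference, without its sign, was 0.147 for the synthetases and 0.159 for all genes. The 95% interval of the difference lay within a 2-fold change either way for all 34 genes (18637 of the 19938), and within a 1.5-fold change for 26 (10540 of the 19938). The intervals cover the spread between these arrays only.

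At an unadjusted p under 0.05 there were 4 synthetase genes, or 11.8% of the 34, beside 12.7% of all genes. Vars and Qars were higher in suspension (6.63% of all genes were) and Yars and Hars2 lower (6.09%). The suspension and control arrays did not overlap for 14 of the 34, which is 41.2% beside 39.8% of all genes. Of the 14, 6 were higher (21.3% of all genes) and 8 lower (18.5%). Both shares were near the background of the whole array. The higher 6 were Eprs, Iars, Iars2, Qars, Rars2 and Vars, and the lower 8 were Aars2, Hars, Hars2, Rars, Sars, Wars, Wars2 and Yars.

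**Figure D1:**
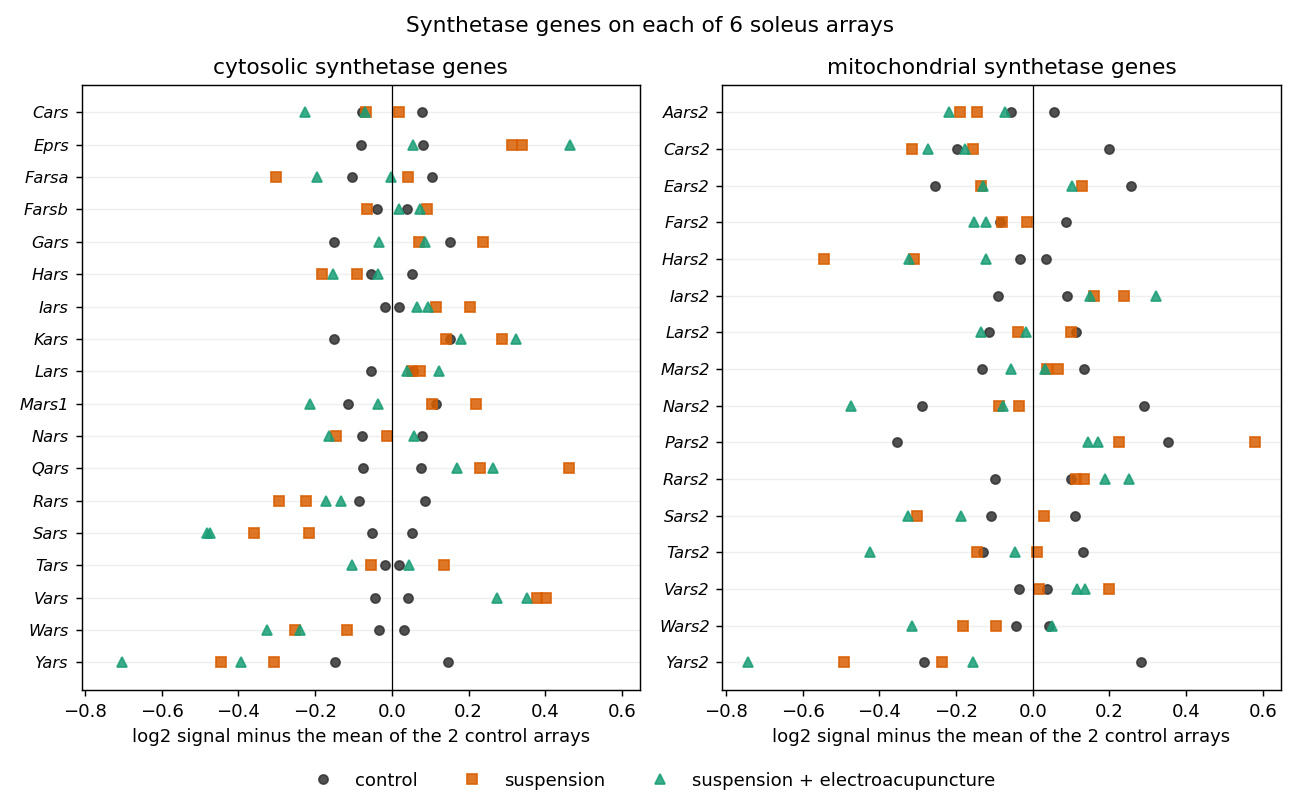
Signal of each synthetase gene on each of the 6 arrays, as the log2 signal minus the mean of the control arrays; each point is 1 array, circles are control, squares suspension and triangles suspension with electroacupuncture. Vars and Qars lie right of both control arrays on all suspended arrays, Sars and Yars lie left of them, and the control arrays of Pars2 and Yars2 lie far apart.

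Among cytosolic genes the lowest unadjusted p belonged to Vars, the valyl-tRNA synthetase gene. Its log2 signal was 6.05 and 6.13 on the control arrays, 6.49 and 6.47 on the suspension arrays and 6.44 and 6.36 on the electroacupuncture arrays. Every suspended array lay above both controls. The difference between suspension and control was 0.39 ± 0.13 (SE; 95% interval 0.10 to 0.68; limma adjusted p = 0.237). Qars, which charges glutamine, read 7.32 and 7.48 in control, 7.86 and 7.63 in suspension and 7.57 and 7.67 with electroacupuncture. Its groups did not overlap either, and the difference from control was 0.35 ± 0.14 (0.03 to 0.66; limma adjusted p = 0.343). Eprs, whose protein joins a glutamyl and a prolyl synthetase in 1 chain, was at 8.23 and 8.07 in control and at 8.48 and 8.46 in suspension, a difference of 0.33 ± 0.16 (limma adjusted p = 0.446).

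Other cytosolic genes read lower in suspension. Yars, the tyrosyl synthetase gene, was at 6.82 and 7.11 in control, 6.66 and 6.52 in suspension and 6.26 and 6.57 with electroacupuncture. The difference of suspension from control was -0.38 ± 0.16 (-0.75 to -0.01; limma adjusted p = 0.386). Sars, whose enzyme charges serine and also loads the tRNA for selenocysteine, was at 7.96 and 7.86 in control, 7.69 and 7.55 in suspension and 7.44 and 7.43 with electroacupuncture. The 3 groups were apart and in that order. The difference between suspension and control was -0.29 ± 0.13 (limma adjusted p = 0.392).

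The multisynthetase complex was represented by 7 measured genes (Eprs, Iars, Kars, Lars, Mars1, Qars and Rars). Of them 6 had differences above 0 in suspension minus control and 1, the arginyl synthetase gene Rars, below, with a median of 0.16. Outside the complex 4 of 11 cytosolic genes were above 0, and their median was -0.08 (-0.026 without control array 1 and -0.15 without control array 2). The mean of the 7 genes, set to the mean of the controls, was 0.00 on both control arrays, 0.17 and 0.12 on the suspension arrays and 0.10 and 0.08 on the electroacupuncture arrays. Rars itself was at 7.80 and 7.63 in control, 7.42 and 7.49 in suspension and 7.55 and 7.58 with electroacupuncture, with every suspended array below both controls. Of all genes 10196 of 19938 were above 0. The count of 6 of 7 was the same under every alternative tried, and the median stayed between 0.14 and 0.22. The alternatives refit the same arrays, and those that change only the estimate of spread cannot move a count or a median. None of the 7 passed the test, and the difference between the complex and the other cytosolic genes was not tested. With electroacupuncture the complex had a median of -0.07 against suspension (3 of 7 above 0) and of 0.08 against control (5 of 7), and the other cytosolic genes had -0.08 and -0.10. These medians moved by over 1.5 times with single arrays. That of the complex against suspension came nearer to 0 with a suspension array left out (-0.011 for array 1, -0.036 for array 2) or with electroacupuncture array 2 left out (-0.023), and against control it was 0.14 without control array 2. Taking the mean of all probe sets of a gene gave the complex -0.019 and 0.16. The other cytosolic genes had -0.046 against suspension without suspension array 1 or electroacupuncture array 1. Against control they had -0.048 without control array 1, -0.037 without electroacupuncture array 1 and -0.15 without electroacupuncture array 2. The scaffold genes did not share a sign. Aimp1 differed by -0.03, Aimp2 by 0.07 and Eef1e1 by -0.56.

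Of the mitochondrial genes, 6 were above 0 and 10 below in suspension minus control, with a median of -0.06 (0.0062 without control array 2). Hars2, the mitochondrial histidyl synthetase gene, was at 5.44 and 5.51 in control, 5.16 and 4.93 in suspension and 5.15 and 5.35 with electroacupuncture. Both suspension arrays lay below both controls, by -0.43 ± 0.16 on average (-0.78 to -0.07; limma adjusted p = 0.288). Its cytosolic partner Hars, which is its neighbour in the genome, differed by -0.14. Pars2, the mitochondrial prolyl synthetase gene, was at 3.40 and 4.11 in control and 3.98 and 4.34 in suspension, so the groups overlapped. Its difference of 0.40 ± 0.24 (limma adjusted p = 0.556) was the least precise of the 34. Yars2, the mitochondrial tyrosyl gene, was at 6.09 and 6.66 in control, 6.14 and 5.88 in suspension and 5.63 and 6.22 with electroacupuncture. These groups also overlapped, and the difference was -0.37 ± 0.24 (limma adjusted p = 0.599).

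Cytosolic and mitochondrial genes were paired where their symbols matched apart from a final number, which gave 12 pairs. This rule left out some genes measured for both compartments, with these differences between suspension and control. They were Eprs (0.33) beside Ears2 (-0.003) and Pars2 (0.40), and Farsa (-0.13) and Farsb (0.01) beside Fars2 (-0.05). In suspension minus control 10 of the 12 pairs had the same sign, among them Vars and Vars2 (0.39 and 0.11), Iars and Iars2 (0.16 and 0.20) and Yars and Yars2 (-0.38 and -0.37). The exceptions were Rars and Rars2 (-0.26 and 0.12) and Tars and Tars2 (0.04 and -0.07). With electroacupuncture against suspension 6 of the 12 pairs had the same sign. These are counts of small differences, with no test. By structural class, the 19 class I genes had a median of 0.05 in suspension minus control and the 15 class II genes one of -0.07. Eprs, with its glutamyl and prolyl parts, was counted in class I alone.

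**Figure D2:**
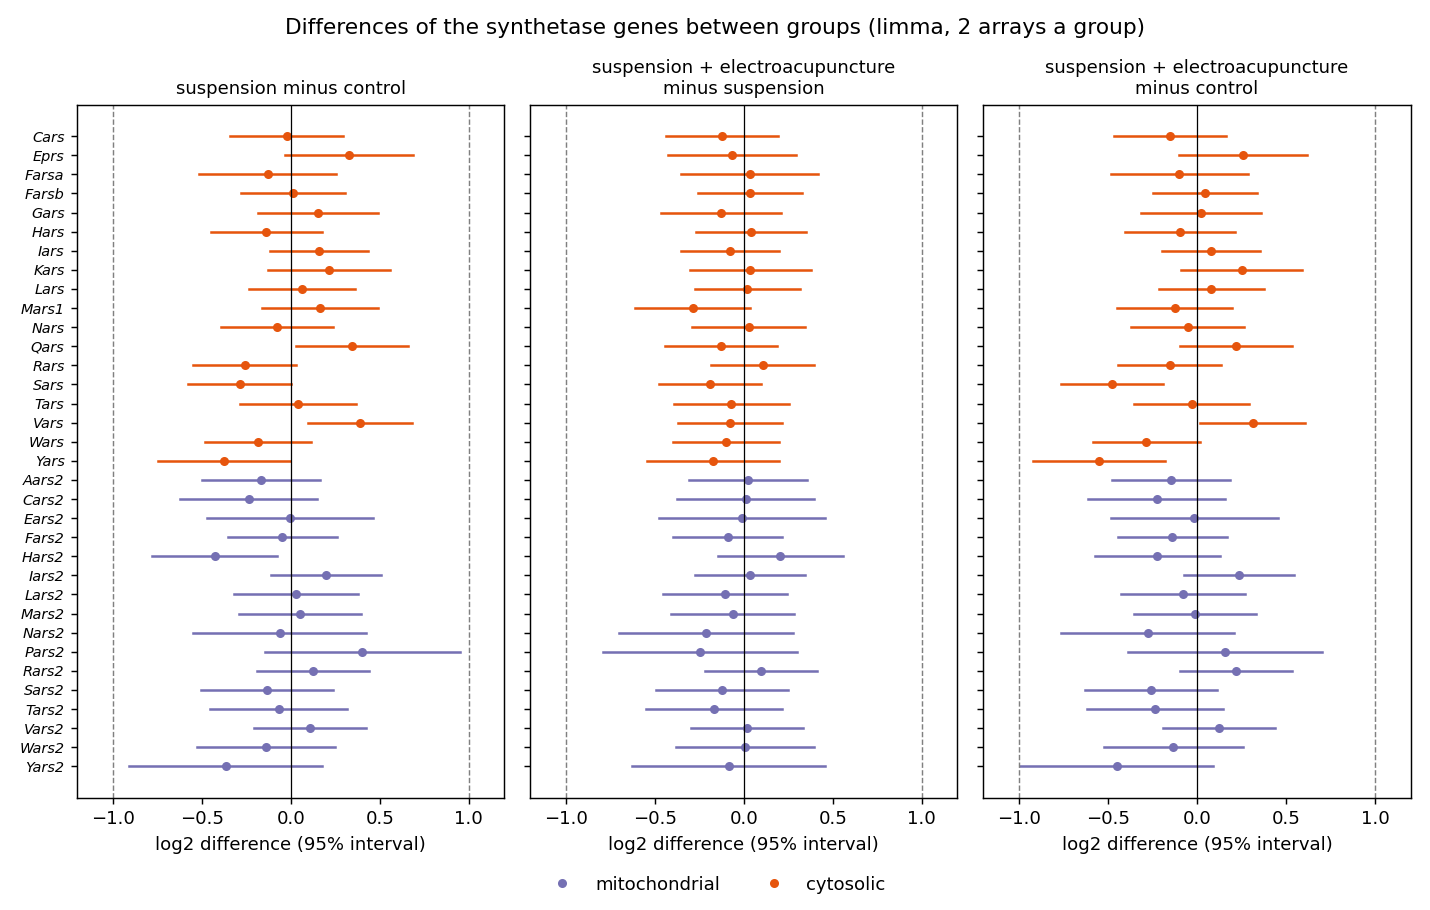
Difference of each synthetase gene in the 3 comparisons, on the log2 scale, from limma with 2 arrays a group; points are differences, bars their 95% intervals, orange cytosolic and purple mitochondrial genes, and dashed lines a 2-fold change. All intervals lie between the dashed lines, and the widest belong to Pars2 and Yars2.

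The addition of electroacupuncture to suspension was compared with suspension alone to see what the treatment did in unloaded muscle. No synthetase gene passed the test, and 0% of all genes did. None of the 34 had an unadjusted p under 0.05 in limma, where 612 genes (3.07%) did, 1.56% higher and 1.5% lower. The differences ran from -0.29 (Mars1) to 0.20 (Hars2), with 14 above 0 and 20 below and a median of -0.07, where the median of all genes was -0.01. The mitochondrial genes had a median of -0.04, which ran from -0.12 to 0.045 with an array left out. All 34 intervals lay within a 2-fold change (19396 of the 19938 genes) and 30 within a 1.5-fold change (13223 of the 19938). The arrays of the groups did not overlap for 10 of the 34 (29.4%, beside 32.6% of all genes). With electroacupuncture 8 of these were lower (17.1% of all genes) and 2 higher (15.4%).

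Mars1, the gene of the methionyl synthetase that charges the initiator tRNA, was at 7.03 and 6.92 in suspension and at 6.60 and 6.78 with electroacupuncture. Both treated arrays lay below both suspension arrays, by -0.29 ± 0.14 (-0.61 to 0.04; limma adjusted p = 1.00), and control read 6.93 and 6.70. The other cytosolic genes with the smallest p in this comparison were Sars (-0.19 ± 0.13), Yars (-0.17 ± 0.16), Qars (-0.13 ± 0.14) and Cars (-0.12 ± 0.14), each with a limma adjusted p of 1.00. Of the mitochondrial genes these were Hars2 (0.20 ± 0.16), Pars2 (-0.24 ± 0.24) and the threonyl gene Tars2 (-0.17 ± 0.17), also with a limma adjusted p of 1.00. The arginyl genes Rars and Rars2 were the only ones of the 34 whose treated arrays both lay above both suspension arrays, with differences of 0.11 and 0.10.

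The suspended and treated muscle was also compared with loaded control muscle. This comparison shares its control arrays with that of suspension against control, so the values are given side by side and are no second observation. Again no synthetase gene passed, beside 206 genes or 1.03% of all. Sars came nearest, at -0.48 ± 0.13 (-0.77 to -0.19; limma adjusted p = 0.142), after -0.29 in suspension alone. Yars differed by -0.55 ± 0.16 (-0.92 to -0.18; limma adjusted p = 0.188), after -0.38. Vars differed by 0.31 ± 0.13 (limma adjusted p = 0.356), after 0.39.

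These 3 were the genes with an unadjusted p under 0.05, 8.82% of the 34 beside 12.8% of all genes, with 1 higher (6.47% of all genes) and 2 lower (6.34%). The groups did not overlap for 15 (44.1% beside 41.8%), of which 7 were higher (21.8%) and 8 lower (20%). Wars, the tryptophanyl synthetase gene, which interferon induces, was at 6.58 and 6.64 in control, 6.49 and 6.36 in suspension and 6.28 and 6.37 with electroacupuncture. All 4 suspended arrays lay below both controls, and the treated arrays differed from control by -0.28 ± 0.13 (limma adjusted p = 0.422). On these arrays the mean of the 3 measured interferon response genes lay between -0.11 and 0.21 from its control mean. The lysyl gene Kars (0.25 ± 0.15), and the mitochondrial genes Yars2 (-0.45 ± 0.24), Iars2 (0.23 ± 0.14) and Rars2 (0.22 ± 0.14), had a limma adjusted p of 0.506 or more. The 18 cytosolic genes had a median of -0.04 and the 16 mitochondrial genes one of -0.14, with 12 of the 16 below 0. Without control array 2 the mitochondrial median was -0.040, and without electroacupuncture array 1 it was -0.033.

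Duplicate arrays of a group were closer for the synthetases than for all genes. Of the 34 synthetases 31 had a mean signal at or above the median of all genes, and genes of like signal were not compared. Across the 34 genes the SD of the difference between duplicates was 0.254 for control, 0.155 for suspension and 0.189 for electroacupuncture, where all genes gave 0.357, 0.293 and 0.251. The mitochondrial genes parted the control arrays more than the cytosolic ones: 12 of 16 were lower on control array 1, and relative to the control mean they averaged -0.10 and 0.10 on the control arrays, against -0.01 and 0.01 for the cytosolic genes. They also parted the electroacupuncture arrays, with 13 of 16 lower on array 1 and 3 higher. Their means there were -0.18 and -0.004, against -0.06 and -0.03 for the cytosolic genes. The largest gaps were 0.71 for Pars2 between the control arrays and 0.59 for Yars2 between the electroacupuncture arrays. The signal of Pars2 on control array 1, 3.40, was under 3.50, a level that 95% of 1015 genes for olfactory receptors (hardly used in muscle) did not exceed. The other 33 genes were above it on every array. Iars alone had a further set of probes, which gave 0.20 for suspension minus control where the set used gave 0.16, and 0.04 for electroacupuncture minus suspension where the set used gave -0.08.

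Markers of other cells moved between the same arrays. Relative to control, 11 macrophage markers averaged 0.64 and -0.10 on suspension arrays 1 and 2 and 0.86 and 0.47 with electroacupuncture, with 9 of the 11 above 0 and none past the test in suspension minus control. The mean log2 level of that list was 5.20 to 5.51 in control, 5.26 to 6.00 in suspension and 5.82 to 6.21 with electroacupuncture. The mean of 7 adipocyte markers lay at -0.84 and 0.84 on the control arrays, -0.68 and -0.86 on the suspension arrays and -0.17 and -0.35 with electroacupuncture, all 7 below 0 in suspension minus control. Of 9 fibroblast and tendon markers 3 were above 0 in suspension minus control (Dcn 0.17, Pdgfra 0.39 and Lum 0.53) and 6 below. Only 1 passed there, the tendon gene Tnmd, which fell by 1.94 (SE 0.15, limma adjusted p = 0.00307). That call was lost with every probe set tested by itself (limma adjusted p = 0.101). In the treated group against control Tnmd and Scx passed, at -1.196 and -0.963 (limma adjusted p of 0.0111 and 0.0334). The mean of the 9 lay at -0.05 and -0.90 on the suspension arrays. The mean of 5 endothelial markers lay at -0.43 and -0.51 with electroacupuncture. All 5 were below 0 in the treated group against control, and 1, Kdr, passed (limma adjusted p = 0.0135). The part of these cells in the synthetase values was not tested. In bulk tissue fewer cells of a type and less RNA per cell cannot be told apart.

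**Figure D3:**
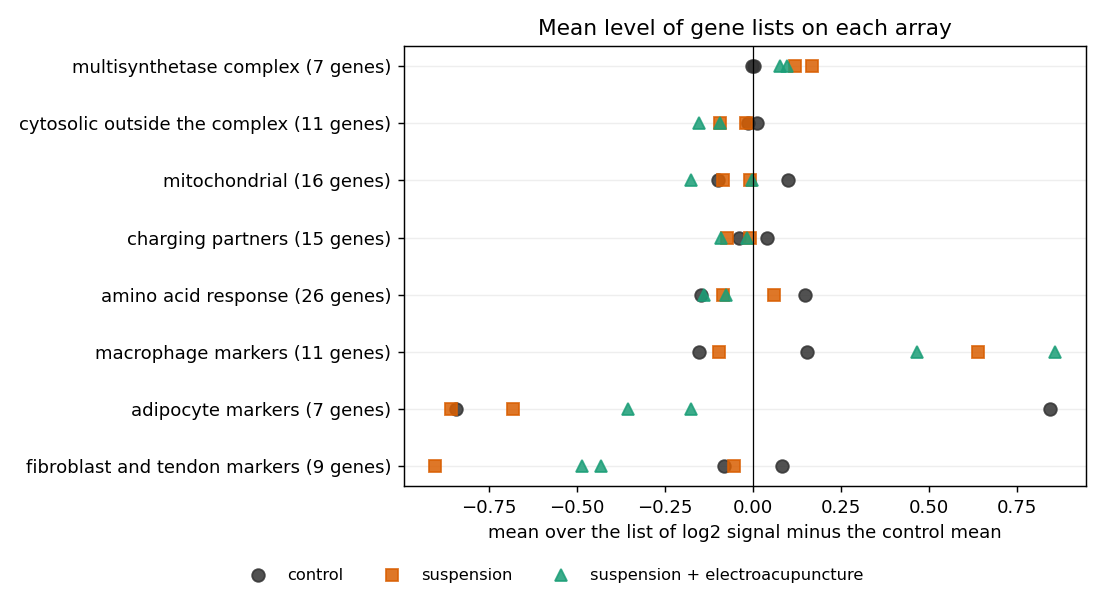
Mean of each gene list on each of the 6 arrays, as the mean over its genes of the log2 signal minus the control mean; each point is 1 array, coloured and shaped by group. The suspended arrays of the multisynthetase complex lie between 0.08 and 0.17, while the macrophage, adipocyte and tendon markers spread far wider, with the control arrays of the adipocyte markers at -0.84 and 0.84.

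Of 15 measured partners of tRNA charging none passed in any of the 3 comparisons. In suspension minus control 7 were above 0 and 8 below, and 5 (33.3%, beside 12.7% of all genes) had an unadjusted p under 0.05. Gcn1, which helps GCN2 sense uncharged tRNA, was at 5.80 and 6.22 in control, 6.79 and 6.70 in suspension and 6.46 and 6.42 with electroacupuncture. Every suspended array lay above both controls, and suspension differed from control by 0.73 ± 0.16 (0.37 to 1.10; limma adjusted p = 0.0856). The treated group differed from control by 0.43 ± 0.16 (limma adjusted p = 0.307). The kinase gene Eif2ak4 itself differed by 0.37 in suspension. Eef1e1, a scaffold of the multisynthetase complex, was at 7.28 and 7.20 in control, 6.72 and 6.64 in suspension and 6.39 and 6.77 with electroacupuncture. It differed by -0.56 ± 0.16 in suspension (limma adjusted p = 0.155) and by -0.66 ± 0.16 with electroacupuncture (limma adjusted p = 0.102), both against control.

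Of the partners of mitochondrial charging, Mtfmt and Qrsl1 had negative differences with an unadjusted p under 0.05 and Gatb and Gatc did not. Mtfmt, which formylates the mitochondrial initiator tRNA, was at 5.81 and 5.84 in control, 5.38 and 5.32 in suspension and 5.42 and 5.46 with electroacupuncture. All suspended arrays lay below both controls, by -0.48 ± 0.13 in suspension (limma adjusted p = 0.161) and -0.39 ± 0.13 with electroacupuncture (limma adjusted p = 0.262). Qrsl1, a subunit of the amidotransferase, differed by -0.58 in suspension (limma adjusted p = 0.290), whereas the other subunits, Gatb and Gatc, differed by 0.10 and -0.07. With electroacupuncture against suspension the partners nearest to the threshold were Gcn1 (-0.31 ± 0.16), the selenocysteine pathway kinase gene Pstk (0.20 ± 0.14) and Qrsl1 (0.15 ± 0.21), each with a limma adjusted p of 1.00.

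The amino acid response genes other than synthetases moved in both directions. Of 26 measured, 1 rose and 1 fell in suspension minus control, beside 1.05% of all genes called, with 11 above 0 and 15 below and a median of -0.04. At an unadjusted p under 0.05 there were 11 of the 26 (42.3%, beside 12.7% of all genes), 5 higher and 6 lower, and the groups did not overlap for 16 (61.5%, beside 39.8%). Chac1, a glutathione-degrading enzyme gene, was at 5.25 and 6.64 in control, 8.63 and 7.81 in suspension and 7.61 and 8.18 with electroacupuncture. Every suspended array lay above both controls, which were themselves far apart. It rose by 2.27 ± 0.42 in suspension (limma adjusted p = 0.0471), and stood at 1.95 ± 0.42 in the treated group against control (limma adjusted p = 0.0778). The call was lost without control array 1 (a difference of 1.58), without either suspension array (1.86 and 2.68) and without either electroacupuncture array (2.27 in both fits). It held under 7 of 18 alternatives, with limma adjusted p from 0.00516 to 0.227 (0.067 with the replicate number as a block). Slc38a2, the gene of the amino acid transporter SNAT2, was at 9.52 and 9.66 in control, 8.73 and 8.74 in suspension and 8.68 and 8.60 with electroacupuncture. It fell by 0.85 in suspension (SE 0.12, limma adjusted p = 0.021) and by 0.95 in the treated group against control (limma adjusted p = 0.0139).

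The fall of Slc38a2 in suspension lost its call without any 1 of the 4 suspended arrays (limma adjusted p of 0.132, 0.129, 0.073 and 0.0729), and that in the treated group without either electroacupuncture array (0.142 and 0.172), at differences from -1.02 to -0.78 over both comparisons. The calls held under 10 of 18 and 14 of 17 alternatives (limma adjusted p from 0.0101 to 0.132 and from 0.00743 to 0.172), and that in suspension had 0.0522 with the replicate number as a block. Eif4ebp1, a translation repressor gene, stood at 0.92 ± 0.18 in suspension minus control (limma adjusted p = 0.0517), and Atf3 at -1.39 ± 0.33 in the treated group against control (limma adjusted p = 0.109). With electroacupuncture against suspension none passed, and Sesn2 (-0.39 ± 0.15), Cth (-0.69 ± 0.29) and Eif4ebp1 (-0.31 ± 0.18) were nearest, each with a limma adjusted p of 1.00. Atf4 differed by -0.18 in suspension, within an interval of -0.53 to 0.17. Genes whose promoters hold TGATGNAA did not share a direction in suspension minus control. Of the synthetases with it, Gars differed by 0.15, Iars by 0.16, Tars by 0.04 and Yars by -0.38. Of the 9 response genes with it, Atf3 differed by -1.22, Asns by -0.70, Nupr1 by -0.57, Trib3 by -0.36 and Slc7a11 by -0.22, and Fgf21 by 0.11, Herpud1 by 0.44, Vldlr by 0.46 and Chac1 by 2.27.

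**Figure D4:**
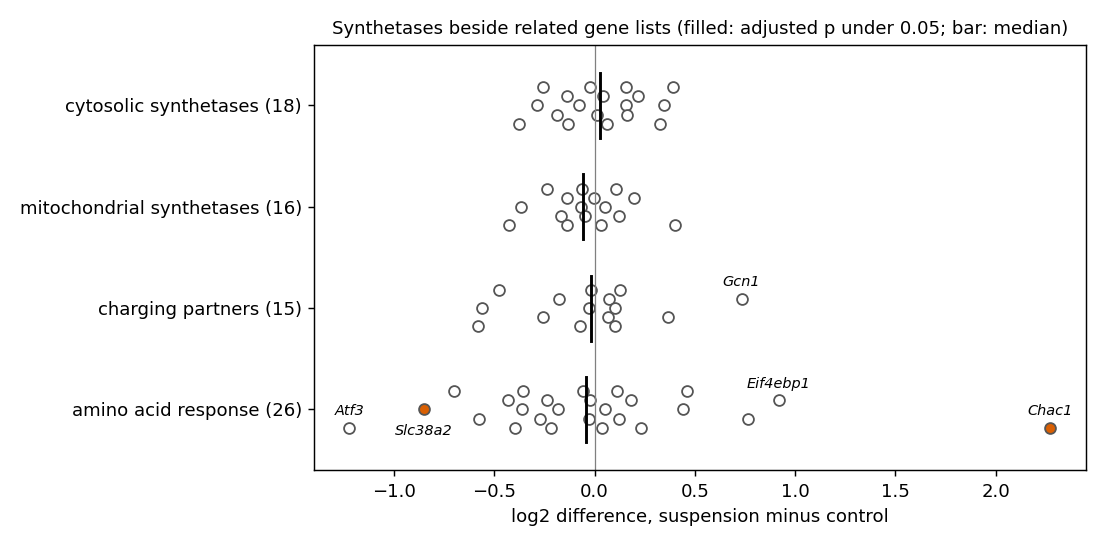
Difference in suspension minus control, on the log2 scale, of every gene in 4 lists; each circle is 1 gene, filled circles passed adjusted p under 0.05 over all genes, bars mark medians, and height within a list only separates points. The synthetases lie between -0.43 and 0.40, and the filled circles are Slc38a2 at -0.85 and Chac1 at 2.27.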

How the data were processed

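RNA from 6 soleus samples was labelled with biotin and read on 1.0 ST arrays of Affymetrix. For 35556 probe sets (transcript clusters) the authors deposited log2 signals, made with RMA in Affymetrix Expression Console, per the submitters' processing notes, and they were used as they stood. RMA makes the distribution of all arrays alike, so a shift shared by most genes would not be seen. No genome build of the array annotation is given in the sources used here.

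Clusters with 1 gene symbol (21789) were kept, with the highest mean per symbol, leaving 19938 genes and no filter on signal. All 34 synthetase symbols matched RefSeq by Entrez ID. The 6 arrays entered a single fit in limma (3.58.1, under R 4.3.3, with variance trend, 3 residual and 5.88 prior degrees of freedom), with Benjamini-Hochberg adjustment over all genes. The fit was also run on simulated data. Differences planted there were larger than any synthetase difference given here, so that run does not cover differences of their size. Values are log2 differences ± SE.

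The genes given with a test were, per comparison, the 5 cytosolic, 3 mitochondrial and, from each other list, 3 with the smallest p, plus all that passed. Rars, Aimp1, Aimp2, Eif2ak4, Qrsl1, Gatb, Gatc, Atf4, Myl3, Tnmd, the paired genes and those with promoter matches were named after their values were seen. So were Scx, Kdr, Dcn, Lum, Pdgfra and the genes that the pairing left out. The members and lists were chosen with earlier results of these data known.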

Additional observations from a re-analysis of the deposited data

How the results depend on the processing

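No synthetase gene passed adjusted p under 0.05 in limma in any comparison under any of 18 alternatives in suspension minus control and 17 in the other comparisons, and the lowest adjusted p of a named synthetase over them was 0.0884, for Sars in the treated group against control. Of 24 named synthetase differences 23 kept their sign throughout, and Tars2 in electroacupuncture minus suspension ranged from -0.36 to 0.020 with an array left out. With an array left out, the cytosolic median ranged from -0.080 to -0.044 in electroacupuncture minus suspension and from -0.043 to -0.0026 in the treated group against control.

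The counts over all genes moved more. In suspension minus control 209 genes became 80 without the variance trend, 130 with array weights, 68 with only the compared groups fitted, 1 with every cluster tested by itself and 16 to 301 with an array left out (16 and 42 without suspension array 1 or 2, 67 without either electroacupuncture array). In the treated group against control 206 became 101 without the trend, 312 with quantile normalization again, 129 with only the compared groups, 1 by cluster and 2 to 299 with an array left out (9 and 2 without electroacupuncture array 1 or 2, 124 and 113 without suspension array 1 or 2). In electroacupuncture minus suspension 0 became 1 with a robust prior, 4 with array weights, 3 with only the compared groups and 0 to 3 with an array left out. With a replicate block the counts were 102 and 127 for the comparisons with control. The labels do not say whether arrays with the same replicate number were handled together. Deviations of array 1 correlated at -0.16 between control and suspension, 0.02 between control and the treated group and -0.02 between the suspended groups. With 2 arrays a group these correlations cannot settle it. A replicate block with the suspension numbers exchanged, added after the data were seen, gave 266 genes.

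Each fit with an array left out leaves 2 residual degrees of freedom, and a group left with 1 array is assumed to vary like the others. The median SE of a synthetase difference was 0.145 on the log2 scale, and differences near that size cannot be told from the spread between 2 arrays a group. Larger ones did not pass either, up to the -0.55 of Yars in the treated group against control.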
